A study of Homo sapiens with 8 samples.

Results

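Integrin chains and the laminins, type IV collagens, nidogens and agrin of the basement membrane were examined in SKOV3, an ovarian cancer cell line, with and without added low-density lipoprotein (LDL), a particle that brings cholesterol to cells. Members were taken by gene name: every integrin alpha and beta chain, laminin alpha, beta and gamma chain, collagen IV chain, both nidogens and AGRN, which gave 47 of the 22554 features of the deposited tables. LDL-treated cells received 50 µg/mL LDL over 48 h (4 samples, LDL samples 1 to 4), and control cells stayed in ordinary medium (4 samples, control samples 1 to 4). Both groups grew in McCoy's 5A medium with fetal bovine serum, which carries lipoproteins of its own, and stranded libraries of polyadenylated RNA were sequenced. Whether the samples of a group are separate cultures is not stated, so the p-values describe variation among these samples, part or all of which may be technical. In such bulk samples, fewer cells of a kind and less RNA per cell cannot be told apart.

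As background, a basement membrane is a sheet made of a laminin network and a collagen IV network, which nidogens and heparan sulfate proteoglycans such as agrin link. Each integrin pairs an alpha chain with a beta chain, and the pair sets the ligand. ITGA3 and ITGA6 form laminin receptors, ITGA1, ITGA2, ITGA10 and ITGA11 collagen receptors, ITGA5 the classical fibronectin receptor, and ITGAV receptors for ligands with an RGD motif. Laminins are trimers of an alpha, a beta and a gamma chain, and collagen IV molecules are trimers that differ in their alpha chains.

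Library totals ran from 34682501 to 36780334 counts in LDL samples and from 37189698 to 44883561 counts in control samples, so every LDL library was the shallower. Levels of different genes are compared in FPKM, which corrects for gene length and library size. Of 11 ovarian carcinoma and epithelial markers, 9 reached a mean of 1 FPKM, among them PAX8 at 102 FPKM in LDL and 96.6 FPKM in control samples, while WT1 and MUC16 were near 0. Their sum ran from 2606 to 2678 FPKM in LDL samples and from 2422 to 2690 FPKM in control samples. None of 7 leukocyte, 6 endothelial and 4 platelet markers reached 1 FPKM, and PTPRC, PF4, PPBP and GP9 had no count. Of 6 fibroblast markers, COL1A1, COL3A1 and LUM passed 1 FPKM and DCN, PDGFRA and FAP did not; their sum ran from 28.4 to 74.6 FPKM in LDL samples and from 63.2 to 67.2 FPKM in control samples.

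Some chains described here are neighbours that start from the same stretch of DNA. Some of these stretches are shown first, with the start region of LAMA3, a chain of the epithelial laminin. Sequences and starts are from RefSeq on GRCh38.p14, whose promoter table held 34 of the 47 members. COL4A1 (minus strand) and COL4A2 (plus strand) start 127 bases apart on chromosome 13, and the 126 bases between them are given whole (chr13:110307158-110307283, plus strand). COL4A4 (minus strand) and COL4A3 (plus strand) start 419 bases apart on chromosome 2, and the 250 bases before the COL4A3 start are given (chr2:227164374-227164623, plus strand). COL4A6 (minus strand) and COL4A5 (plus strand) start 380 bases apart on chromosome X, a stretch that is not shown. For LAMA3 the 250 bases before its listed start are given (chr18:23872770-23873019, plus strand), a start that lies inside the annotated gene. Capitals mark CCAAT and GGGCGG, read on both strands, in the collagen stretches, and TGANTCA, the letters of the AP-1 element, in the LAMA3 stretch.
COL4A1-COL4A2: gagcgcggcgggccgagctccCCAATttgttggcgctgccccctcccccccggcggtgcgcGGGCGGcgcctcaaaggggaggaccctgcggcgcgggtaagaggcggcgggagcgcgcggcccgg
COL4A3: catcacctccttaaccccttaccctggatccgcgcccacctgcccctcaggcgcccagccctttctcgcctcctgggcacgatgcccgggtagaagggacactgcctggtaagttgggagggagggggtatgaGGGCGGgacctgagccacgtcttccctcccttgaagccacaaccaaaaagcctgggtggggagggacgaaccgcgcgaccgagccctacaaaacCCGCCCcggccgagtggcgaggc
LAMA3: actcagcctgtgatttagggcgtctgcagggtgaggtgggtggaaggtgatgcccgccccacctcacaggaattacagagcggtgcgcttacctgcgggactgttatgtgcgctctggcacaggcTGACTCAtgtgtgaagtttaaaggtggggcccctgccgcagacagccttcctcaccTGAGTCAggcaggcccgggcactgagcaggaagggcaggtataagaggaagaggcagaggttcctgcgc

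The stretch between COL4A1 and COL4A2 held CCAAT once and GGGCGG once; of 35116 promoters in the table, 21.1% held CCAAT and 34.6% held GGGCGG within 126 bases before the start. The COL4A3 stretch held GGGCGG in 2 places and no CCAAT, where 42.6% of promoters hold GGGCGG and 32.0% hold CCAAT within 250 bases. The LAMA3 stretch held TGANTCA in 2 places, which 6.57% of promoters hold at least once. No marked motif overlaps another. The matches describe letters, not bound sites.

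With a mean over all samples of at least 1 FPKM taken as expressed, 28 of 47 members were expressed: 7 of 18 integrin alpha chains, 7 of 8 beta chains, 3 of 5 laminin alpha chains, 6 of 7 laminin beta and gamma chains, 3 of 6 collagen IV chains, and NID2 and AGRN. Of all features, 12246 of 22554 reached that level. By level, 3 members reached 100 FPKM, 16 lay from 10 to under 100 FPKM, 9 from 1 to under 10 FPKM and 19 under 1 FPKM. ITGA8 and ITGAM had no count in any library, which allows up to 3 counts per library, or 0.0816 to 0.0865 CPM (counts scaled to library size) in LDL and 0.0668 to 0.0807 CPM in control libraries. The filter on low counts passed 39 members, the 28 expressed and 11 under 1 FPKM. The 8 others were ITGA8, ITGA11, ITGAD, ITGAL, ITGAM, LAMA1, LAMB4 and COL4A6. LAMA1, the embryonic laminin chain, held the most of these, with counts of 0, 12, 7 and 6 in LDL samples 1 to 4 and 6, 21, 6 and 8 in control samples 1 to 4.

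**Figure D1:**
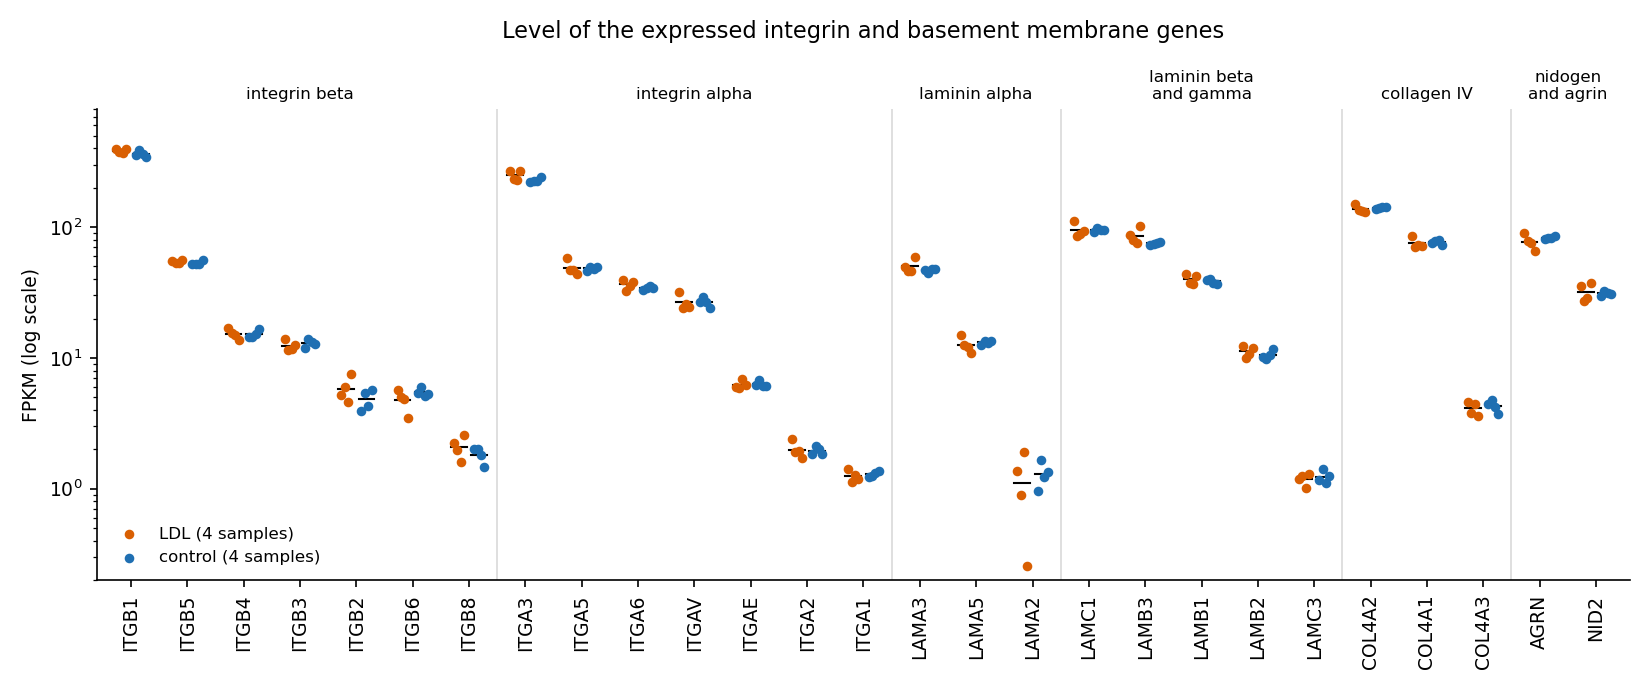
FPKM on a log scale of the expressed members reported here, by family, with LDL samples in orange and control samples in blue, each point a sample and each black line a group mean. ITGB1 and ITGA3 lie above all other members, and the low LAMA2 point is LDL sample 4, at 0.256 FPKM.

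Among integrin beta chains, ITGB1, the partner of most alpha chains, was by far the most abundant. ITGB1 had 398, 376, 368 and 398 FPKM in LDL samples 1 to 4 and 355, 392, 359.9 and 347 FPKM in control samples 1 to 4. The groups overlap, and ITGB1 ranked 151 of all features by mean FPKM. Its share of the summed beta chain FPKM was 80.2% ± 0.254 in LDL and 79.5% ± 1.11 in control samples (SD, n = 4 each). ITGB5, a partner of ITGAV, followed with a share of 11.3% ± 0.273 in LDL and 11.6% ± 0.738 in control samples, then ITGB4, the hemidesmosome chain, with 3.18% ± 0.275 in LDL and 3.33% ± 0.336 in control samples, and ITGB3, another partner of ITGAV, with 2.58% ± 0.160 in LDL and 2.84% ± 0.105 in control samples. ITGB2, the leukocyte chain, stood at 5.80 FPKM in LDL and 4.81 FPKM in control samples although its partners ITGAL, ITGAM, ITGAD and ITGAX were all under 1 FPKM. By counts ITGB2 had 13.3 ± 3.16 CPM in LDL and 12.3 ± 0.659 CPM in control samples. The ITGB2 ratio of FPKM to CPM varied 1.44-fold over the libraries, so its group means depend on the measure. ITGB6 and ITGB8 pair with ITGAV and activate latent TGF-beta; ITGB6 averaged 4.75 FPKM in LDL and 5.44 FPKM in control samples, and ITGB8 averaged 2.10 FPKM in LDL and 1.82 FPKM in control samples. ITGB7 was under 1 FPKM in every library.

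Among alpha chains, ITGA3, which forms a laminin receptor with ITGB1, dominated. ITGA3 had 269.6, 234, 229.7 and 267 FPKM in LDL samples 1 to 4 and 221, 226, 224 and 240.2 FPKM in control samples 1 to 4, or 66.7% ± 1.73 in LDL and 65.1% ± 1.07 in control samples of the summed alpha chain FPKM (SD, n = 4 each). LDL samples 1 and 4 were high and the other LDL samples lay within the control range. ITGA5, the fibronectin receptor chain, averaged 48.9 ± 5.95 FPKM in LDL and 48.4 ± 1.53 FPKM in control samples, ahead of ITGA6 at 36.4 ± 3.23 FPKM in LDL and 34.2 ± 0.976 FPKM in control samples and ITGAV at 26.6 ± 3.77 FPKM in LDL and 26.7 ± 2.21 FPKM in control samples. ITGAE, which pairs with ITGB7 to bind E-cadherin, averaged 6.25 FPKM in LDL and 6.28 FPKM in control samples. HASPIN overlaps ITGAE on the opposite strand, and the strand setting of the counting is unknown here. The same limit holds for other members with a protein-coding gene on the opposite strand, among them LAMA5 (ADRM1), NID2 (RTRAF), ITGB4 (GALK1) and LAMB1 (DLD). The collagen receptor chains were low, ITGA2 at 1.98 FPKM in LDL and 1.95 FPKM in control samples and ITGA1 at 1.25 FPKM in LDL and 1.28 FPKM in control samples. PELO lies within ITGA1 on the same strand, so ITGA1 counts are uncertain. Summed over the alpha chains able to pair with ITGB1, FPKM came to a ratio to ITGB1 of 0.954 ± 0.0459 in LDL and 0.943 ± 0.0583 in control samples.

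Laminin genes were led by LAMC1, the gamma chain of most laminins, at 94.7 ± 11.6 FPKM in LDL and 95.2 ± 3.02 FPKM in control samples (SD, n = 4 each). LAMA3 and LAMB3, chains of the epithelial laminin that anchors cells through ITGA6 and ITGB4, led their own classes. LAMA3 held 77.6% ± 4.08 in LDL and 75.6% ± 1.35 in control samples of the alpha chain FPKM, and LAMB3 held 62.6% ± 2.00 in LDL and 60.6% ± 0.868 in control samples of the beta chain FPKM. LAMA5, the alpha chain of most adult epithelial basement membranes, averaged 12.6 ± 1.65 FPKM in LDL and 13.1 ± 0.398 FPKM in control samples. Its beta partners LAMB1 and LAMB2 averaged 40.0 ± 3.37 FPKM in LDL and 38.5 ± 1.49 FPKM in control samples for LAMB1 and 11.2 ± 1.10 FPKM in LDL and 10.5 ± 0.821 FPKM in control samples for LAMB2. LAMC3 stood at 1.18 FPKM in LDL and 1.23 FPKM in control samples, and LAMA4, a chain of vessel walls, at 0.587 FPKM in LDL and 0.664 FPKM in control samples.

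LAMA2, the muscle laminin chain, was near the limit, and its deposited measures went apart in LDL sample 4. LAMA2 had 1.35, 0.897, 1.90 and 0.256 FPKM in LDL samples 1 to 4 and 0.952, 1.67, 1.22 and 1.33 FPKM in control samples 1 to 4. By counts it had 2.60, 1.89, 3.55 and 2.70 CPM in LDL samples 1 to 4 and 2.01, 3.15, 2.63 and 2.81 CPM in control samples 1 to 4, where LDL sample 4 lies inside the range of the others. Its ratio of FPKM to CPM varied 5.65-fold over the libraries, against a median of 1.04-fold over the expressed members, of which no other passed 1.5-fold.

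**Figure D2:**
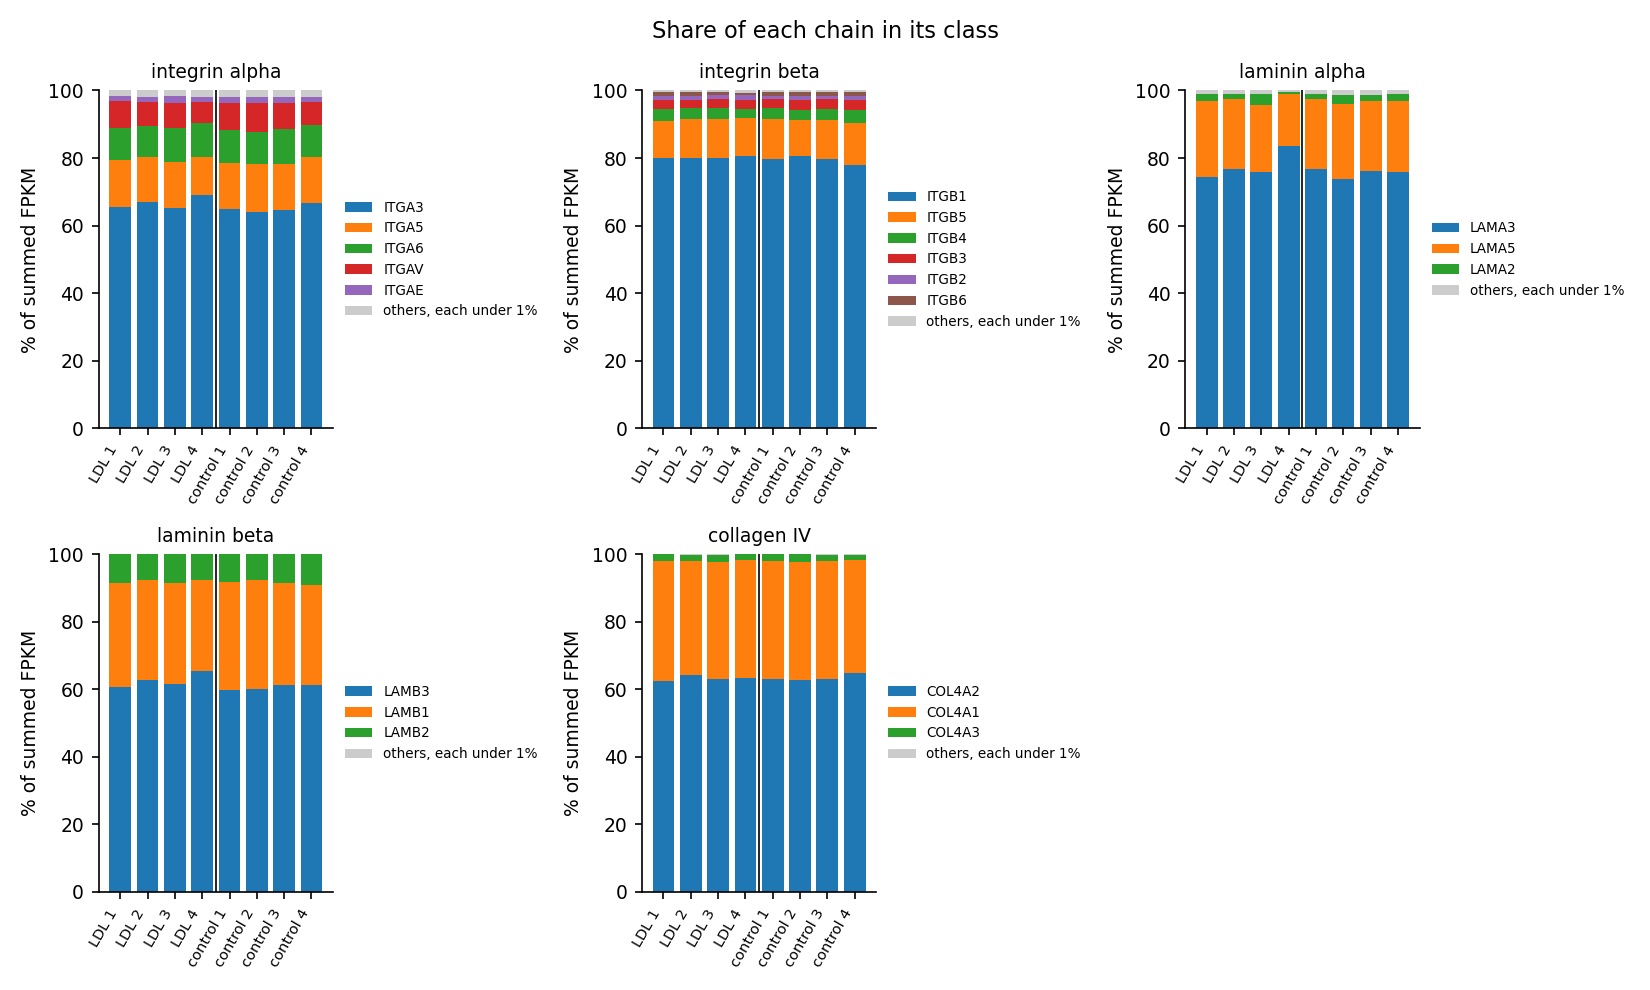
Share of each chain in the summed FPKM of its class (laminin gamma chains not drawn), in percent, for LDL samples 1 to 4 (left of the black line) and control samples 1 to 4 (right of it); chains under 1% on average are pooled in grey. ITGB1, ITGA3, LAMA3, LAMB3 and COL4A2 hold the largest share of their class in all 8 samples.

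In collagen IV, COL4A2 and COL4A1, the chains of ordinary basement membranes, carried nearly all of the signal. COL4A2 had 149.7, 135, 132 and 129.7 FPKM in LDL samples 1 to 4 and 137, 139.7, 143 and 143 FPKM in control samples 1 to 4. COL4A1 had 85.4, 71.1, 72.9 and 71.2 FPKM in LDL samples 1 to 4 and 75.4, 78.2, 79.1 and 73.3 FPKM in control samples 1 to 4. The annotated genes overlap at their starts on opposite strands, where reads cannot be told apart without strand. For both chains LDL sample 1 was the highest of all 8 and the other LDL samples lay below every control sample. The COL4A2 to COL4A1 ratio, for the genes on either side of the 126 bases shown, was 1.82 ± 0.0576 in LDL and 1.84 ± 0.0755 in control samples and stayed between 1.75 and 1.95 (SD, n = 4 each). COL4A3 and COL4A4, which with COL4A5 form the collagen of the kidney filter, were unequal. COL4A3 averaged 4.11 FPKM in LDL and 4.28 FPKM in control samples, whereas COL4A4 averaged 0.180 FPKM in LDL and 0.223 FPKM in control samples and COL4A5 0.102 FPKM in LDL and 0.0792 FPKM in control samples. Of the linkers, AGRN averaged 77.5 ± 9.93 FPKM in LDL and 83.0 ± 2.33 FPKM in control samples, NID2 32.2 ± 5.04 FPKM in LDL and 31.1 ± 0.993 FPKM in control samples and NID1 0.887 ± 0.243 FPKM in LDL and 0.984 ± 0.107 FPKM in control samples.

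No member differed between LDL and control samples past the threshold, an adjusted p under 0.05 in edgeR's quasi-likelihood test with Benjamini-Hochberg adjustment over all 15432 features tested. Of 39 tested members 0 rose and 0 fell, where 0.0648% of all features were called, 0.0259% higher and 0.0389% lower. DESeq2 also called 0 members, against 0.324% of all features, and so did limma, by voom and on FPKM. At an unadjusted edgeR p under 0.05 there were 3 members (7.69%), all higher, against 5.59% of all features in either direction and 2.88% higher. The smallest edgeR adjusted p of a member was 0.675. Over the 39 members the median log2 fold change was -0.0028, against 0.0060 over all features, with 19 members above 0 and 20 below.

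The intervals, from counts, show how large a difference these samples leave room for, and need not cover variation between cultures. All 28 expressed members had a 95% interval within 1.5-fold in either direction. So had 30 of all 39 tested members and 11769 of the 15432 features tested, sets not taken by level. For ITGB1 the interval of the LDL over control ratio ran from 0.972 to 1.12, and for COL4A2 from 0.900 to 1.03. That of LAMC1 ran from 0.899 to 1.09. ITGA9, a low alpha chain that binds tenascin, had the lowest estimate, with 0.317 ± 0.194 CPM in LDL and 0.656 ± 0.353 CPM in control samples (SD, n = 4 each; log2 fold change -1.05, 95% interval -2.23 to 0.14).

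**Figure D3:**
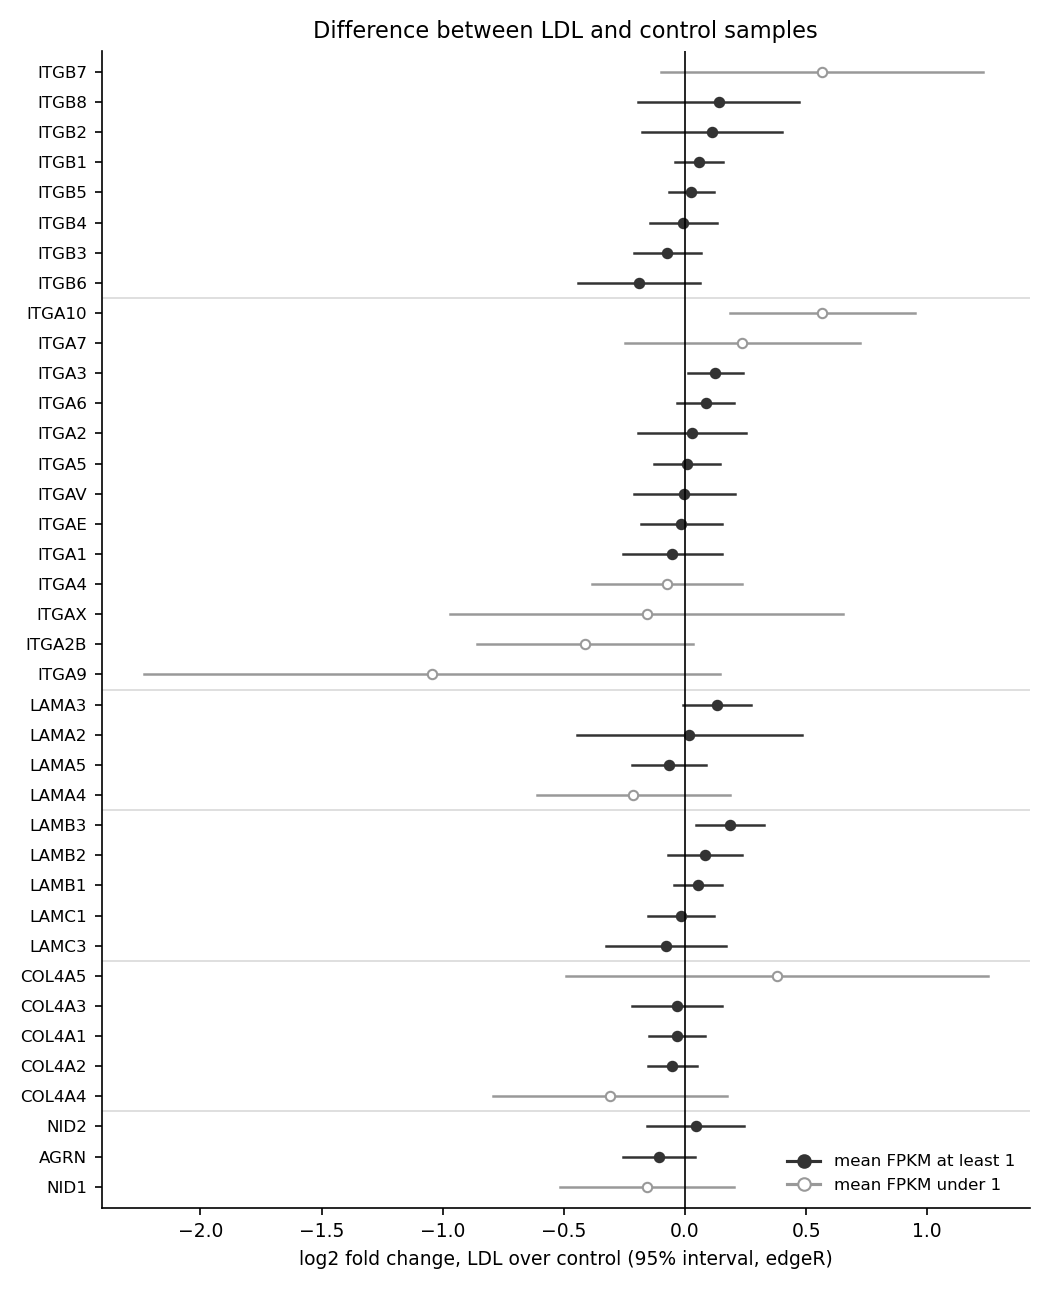
Log2 fold change of LDL over control for the tested members reported here, by family, each point the edgeR estimate and each line its 95% interval; open grey points are members under 1 FPKM. All intervals of expressed members lie within 1.5-fold in either direction, and the interval clears 0 for ITGA10, LAMB3 and ITGA3.

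The members with an unadjusted p under 0.05 were ITGA10, LAMB3 and ITGA3. ITGA10 (GRCh38 chromosome 1, 145891208 to 145910189, minus strand), a collagen receptor chain of cartilage, had 4.79, 4.24, 3.98 and 5.74 CPM in LDL samples 1 to 4 and 3.81, 2.83, 3.49 and 2.54 CPM in control samples 1 to 4. Its groups did not overlap; the ratio came to 1.48-fold (SE of the log2 value 0.181), with an edgeR adjusted p of 0.675 and a two-sided exact permutation p of 0.0286, the smallest that 4 against 4 samples allow. An antisense gene overlaps ITGA10, and its level was low, at 0.871 FPKM in LDL and 0.585 FPKM in control samples.

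LAMB3 (chromosome 1, 209614870 to 209652466, minus strand), the beta chain of the epithelial laminin, had 365, 351, 334 and 432 CPM in LDL samples 1 to 4 and 315, 320.0, 334 and 335 CPM in control samples 1 to 4. LDL samples 1, 2 and 4 lay above every control sample and LDL sample 3 among them. The ratio came to 1.14-fold (95% interval 1.03 to 1.25; edgeR adjusted p = 0.815, exact permutation p = 0.0571), and without LDL sample 4 its log2 fold change was 0.10 in place of 0.19. ITGA3 (chromosome 17, 50055968 to 50090481, plus strand) had a ratio of 1.09-fold (95% interval 1.01 to 1.18; edgeR adjusted p = 0.876, exact permutation p = 0.143). Over all alternatives run, the adjusted p of ITGA10 ran from 0.194 to 1.00, of LAMB3 from 0.312 to 1.00 and of ITGA3 from 0.387 to 1.00.

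Groups did not overlap for ITGA10 and ITGB7, 2 of 39 members (5.13%), both higher, against 3.45% of all features, 1.74% higher and 1.71% lower. ITGB7, the partner of ITGAE, had 1.46, 0.959, 0.952 and 1.21 CPM in LDL samples 1 to 4 and 0.800, 0.774, 0.568 and 0.943 CPM in control samples 1 to 4, with LDL sample 3 and control sample 4 almost touching (edgeR adjusted p = 0.884). ZNF740 overlaps ITGB7 on the opposite strand. ITGA2B, the platelet chain, had 2.83 ± 0.401 CPM in LDL and 3.77 ± 1.14 CPM in control samples (SD, n = 4 each), an edgeR adjusted p of 0.879. Control sample 3 was the highest, at 5.35 CPM.

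LAMA3, the alpha partner of LAMB3 in the epithelial laminin, had 315, 286, 284 and 363 CPM in LDL samples 1 to 4 and 286, 277, 289.5 and 286 CPM in control samples 1 to 4. LDL sample 4 held the highest LAMA3 and the highest LAMB3 of all 8 libraries. The LAMB3 to LAMA3 ratio in FPKM was 1.72 ± 0.0437 in LDL and 1.61 ± 0.0434 in control samples (SD, n = 4 each). The groups overlapped, with LDL sample 3 at 1.657 and control sample 2 at 1.662, and the ratio was not tested. The LAMA3 to LAMA5 ratio was 5.40 in LDL sample 4 and from 3.30 to 3.81 in the other LDL samples, and its mean in control samples was 3.58 ± 0.187 (SD, n = 4). The edgeR adjusted p was 0.879 for LAMA3, whose log2 fold change was 0.13 with all samples and 0.05 without LDL sample 4.

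LDL samples 1 and 4 were the highest or the lowest of the 8 libraries for many members. LDL sample 1 was the highest of the 8 libraries for 12 of the 28 expressed members (42.9%), against 16.1% of all features tested, among them ITGA5, ITGAV, LAMA5, LAMC1, COL4A1, COL4A2 and AGRN. LDL sample 4 was the highest for 9 and the lowest for another 9 of the 28 (32.1% each). The features tested were not taken by level, so all 39 tested members are the closer match to them. Of these 39, LDL sample 1 was the highest for 15 (38.5%). LDL sample 4 was the highest for 10 and the lowest for 10 (25.6% each). Of the 15432 features, LDL sample 4 was the highest for 3087 and the lowest for 3059 (19.8%). AGRN had 678, 605, 587 and 506 CPM in LDL samples 1 to 4 and 616, 642, 638 and 663 CPM in control samples 1 to 4. Its LDL samples lay on both sides of the controls (log2 fold change -0.11, edgeR adjusted p = 0.884). ITGB6 had 26.5, 24.1, 23.6 and 16.4 CPM in LDL samples 1 to 4 and 25.8, 28.0, 24.9 and 24.6 CPM in control samples 1 to 4. It was lowest in LDL sample 4 (edgeR adjusted p = 0.884), where ITGB2 was highest, at 17.7 CPM.

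**Figure D4:**
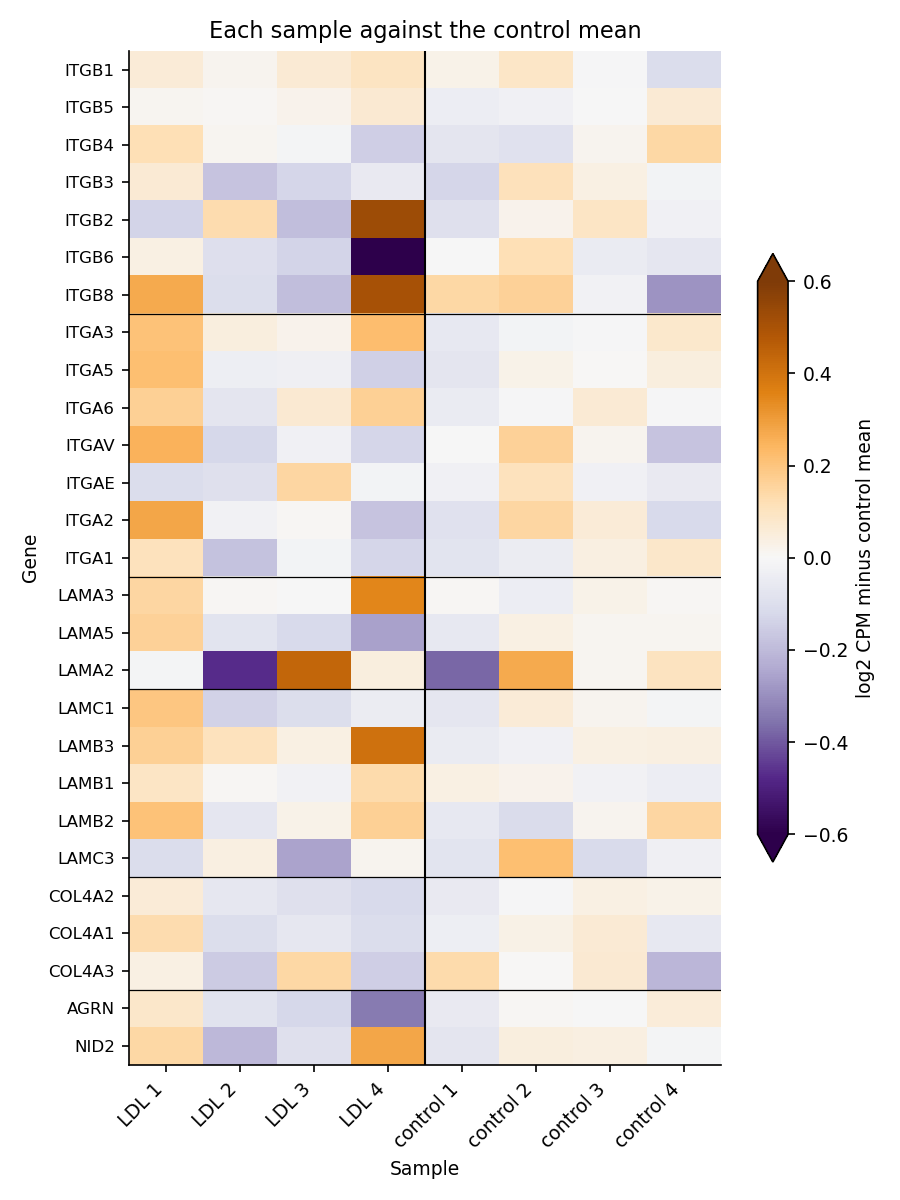
Log2 CPM of each sample minus the mean of the control samples for the expressed members reported here, in rows by family, with LDL samples left of the black line and control samples right of it; the colour scale ends at 0.6 in either direction. LDL sample 4 holds strong colours in both directions, with ITGB6 and AGRN low and ITGB2, ITGB8, LAMB3 and LAMA3 high.

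Without LDL sample 1, edgeR again called 0 of 39 members, where 0.954% of all features were called. There 9 members had an unadjusted p under 0.05, against 14.5% of all features. ITGA10 and LAMB3 were higher. Lower were AGRN (log2 fold change -0.18, edgeR adjusted p = 0.134), LAMA5 (-0.15, adjusted p = 0.166), COL4A1, COL4A2, LAMC1, ITGB6 and NID1, the last at -0.35 (adjusted p = 0.296). Groups then did not overlap for 8 of 39 members, against 14.3% of all features. What sets LDL sample 1 apart was not tested. Without both LDL samples 1 and 4, edgeR called 0 members, where 1.56% of all features were called.

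Genes that work with these members were read from 4 lists, in none of which edgeR called a gene with all 8 samples; DESeq2 called none either. Of 33 tested adhesion complex proteins, which tie integrins to actin, 4 had an unadjusted p under 0.05 (12.1%, against 5.59% of all features), 2 higher and 2 lower, and the median log2 fold change was -0.025. The smallest p was that of KANK2, a talin-binding protein, with 302, 254, 274 and 260.3 CPM in LDL samples 1 to 4 and 306, 305, 329 and 328 CPM in control samples 1 to 4. Every LDL sample lay below every control sample (log2 fold change -0.22, edgeR adjusted p = 0.353). LIMS2, a partner of integrin-linked kinase, was at 0.36, and TLN2, a talin, at -0.15. Groups did not overlap for KANK2 and TLN2, 2 of the 33 genes (6.06%), both lower, against 3.45% of all features.

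Of 26 tested genes of other basement membrane components and collagen-modifying enzymes, 4 had an unadjusted p under 0.05 (15.4%, against 5.59% of all features), 1 higher and 3 lower, and the median log2 fold change was -0.034. HSPG2, which encodes perlecan, a heparan sulfate proteoglycan, had 504, 388, 376 and 378 CPM in LDL samples 1 to 4 and 452, 493, 489 and 499.6 CPM in control samples 1 to 4. LDL sample 1 was the highest of all 8 and the other LDL samples were the lowest (log2 fold change -0.23, edgeR adjusted p = 0.849). Without LDL sample 1, HSPG2 was called lower (edgeR adjusted p = 0.00113), as was KANK2 (edgeR adjusted p = 0.0105). These were the 2 genes of the lists called there, where 0.954% of all features were called. With each sample left out in turn, calls over all features ran from 2 to 149, and this fit gave the 149. It was singled out after the high HSPG2 value of LDL sample 1 was seen, so these 2 calls are no separate evidence of a difference. COL18A1, the collagen that yields endostatin, had 742 ± 69.3 CPM in LDL and 831 ± 16.2 CPM in control samples (SD, n = 4 each; edgeR adjusted p = 0.802), and its groups did not overlap. FBLN2, a fibulin, was at a log2 fold change of -0.34. No gene of the 26 but COL18A1 had groups that did not overlap (3.85%, against 3.45% of all features).

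Of 19 tested matrix receptors and integrin partners outside the integrin family, 2 had an unadjusted p under 0.05, both higher (10.5%, against 2.88% of all features higher and 5.59% in either direction), and the median log2 fold change was 0.046. CAV1, caveolin, was at 0.14 (edgeR adjusted p = 0.830), DDR2, a collagen receptor of low level, at 0.63, and CD9, a tetraspanin, at 0.12. Groups did not overlap for DDR2 and CD44, 2 of the 19 (10.5%), both higher, against 3.45% of all features, 1.74% higher. Of 22 tested integrin ligands, 4 had an unadjusted p under 0.05 (18.2%, against 5.59% of all features), 1 higher and 3 lower. Their median was -0.067, with 7 genes above 0 and 15 below, where 8064 of all features lay above 0 and 7368 below. THBS1, thrombospondin, had 608, 674, 665 and 522 CPM in LDL samples 1 to 4 and 816, 674, 808 and 734 CPM in control samples 1 to 4. The groups did not overlap, though LDL sample 2 and control sample 2 almost touched (log2 fold change -0.30, edgeR adjusted p = 0.662, DESeq2 adjusted p = 0.0544). POSTN, periostin, was at -0.28 and L1CAM, an adhesion molecule, at -0.13. Groups did not overlap for THBS1 and POSTN, 2 of the 22 (9.09%), both lower, against 3.45% of all features, 1.71% lower.

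**Figure D5:**
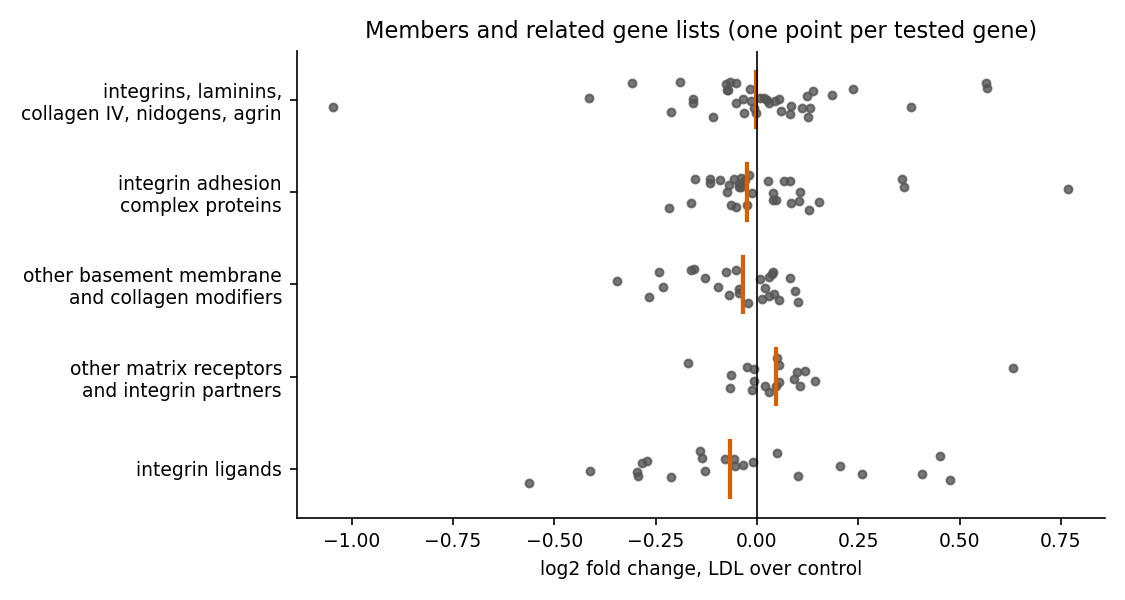
Log2 fold change of LDL over control for each tested gene of the members and of 4 related lists, 1 point per gene and an orange line at each median; vertical scatter within a row carries no information. The medians lie between -0.067 and 0.046.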

How the data were processed

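The deposited table of counts per gene is not normalised and was handled as estimated counts. Of its values from 1 to 20, 55.2% were even. What produces the even values was not tested, and they do not settle whether the counts are estimates. All counts were whole numbers, so none was rounded. FPKM values, too, are as deposited, computed by the authors. HISAT2, featureCounts, DESeq2 1.26.0 and GRCh38 are named, without roles, per the submitters' processing notes; annotation and strand setting are unknown here. Gene coordinates are GENCODE release 29 on GRCh38.

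Counts were tested with edgeR 4.0.16 in R 4.3.3 (quasi-likelihood, robust, TMM, filterByExpr, group as the only term). The SE is the absolute log2 fold change over the square root of F. CPM uses TMM library sizes. The test was checked on simulated data. Limits for a count of 0 cover counting error only and take each count as independent of the others.

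Members, lists and rules were chosen with earlier results of these data known. Named with values were the 3 highest members of each family and their partner chains, the 8 smallest p-values, members whose groups did not overlap, LAMA1 (0 in 1 library, above 20 counts in another), and the 3 smallest p-values of each list; members named without LDL sample 1 were chosen after their values were seen. A tested member is counted in the totals but not reported here. Alternatives included DESeq2 1.42.0 and limma 3.58.1.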

Additional observations from a re-analysis of the deposited data

Results flagged for a closer look

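In 4 cases a sample stood apart from the other 3 of its group by Dixon's 95% limit, among 254 sets of 4 values of CPM, FPKM, chain share or chain ratio, where chance gives about 12.7. COL4A1 stood at 85.4 FPKM in LDL sample 1 and from 71.1 to 72.9 FPKM in the other LDL samples; its CPM did not pass the limit. HSPG2 stood at 504 CPM in LDL sample 1 and from 376 to 388 CPM in the other LDL samples. POSTN stood at 18.9 CPM in LDL sample 4 and from 23.9 to 24.8 CPM in the other LDL samples. The share of ITGB3 in the summed beta chain FPKM was 2.68% in control sample 1 and from 2.88% to 2.91% in the other control samples. Many of these sets share libraries and are not independent.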

How the results depend on the processing

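No member was called under any alternative run. The members' median log2 fold change ran from -0.053 to 0.021 with each sample left out in turn and was -0.059 without both LDL samples 1 and 4, a choice made after seeing the data. Over all features, the 10 calls became 50 with DESeq2, 5 with limma on log2(FPKM + 0.1), 2 with limma on log2(FPKM + 1) and no minimum, 2 with the replicate block, 248 without LDL samples 1 and 4, and from 2 to 149 with each sample left out. Members whose groups do not overlap numbered 1 with upper-quartile factors, with no count filter, with at least 1 CPM in at least 4 samples and with each FPKM setting. With each sample left out they numbered from 2 to 8, where 14.3% of all features did not overlap without LDL sample 1. Without LDL samples 1 and 4 they numbered 11, and the share over all features in that setting is not given here. Groups of fewer samples separate more readily by chance, so these counts are not comparable with that of all 8 samples. In the related lists, which held 33, 26, 19 and 22 tested genes with all 8 samples, 5 genes were called without LDL samples 1 and 4. There 1.56% of all features were called. Among the 5 were CAV1 (log2 fold change 0.23), HSPG2 (-0.34) and KANK2 (-0.27). With each sample left out, from 0 to 2 list genes were called. Expressed members numbered from 28 to 29 with each sample left out. Some log2 fold changes near 0 changed sign: ITGA5 to -0.0013 with upper-quartile factors and -0.00074 with no count filter, ITGB4 to 0.0020 and LAMA2 to -0.18 and -0.44 with FPKM, and, without LDL samples 1 and 4, ITGA5 to -0.038, ITGA6 to -0.0067, LAMA3 to -0.0024 and NID2 to -0.15. With each sample left out, ITGA5 ran from -0.069 to 0.055, COL4A3 from -0.098 to 0.010, LAMC1 from -0.096 to 0.019, LAMA2 from -0.14 to 0.15, ITGB4 from -0.050 to 0.042 and NID2 from -0.043 to 0.11. For LAMA2, the FPKM settings use the 0.256 FPKM of LDL sample 4, where its CPM was 2.70. Causes of these changes of sign were not tested. The labels do not state that sample numbers pair samples, so the numbers were not taken to do so. Deviations of same-numbered samples correlated from -0.10 to 0.060. With 4 samples per group and all features pooled, these correlations cannot decide whether samples were paired.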
